A study of Harpegnathos saltator with 37 samples.

Results

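Hr38, Jra and kay are transcription factor genes that belong to the activity-regulated genes of insects, and their RNA was measured in the central brain of the ponerine ant Harpegnathos saltator. They are 3 of the 14001 genes in the deposited table and were chosen by gene symbol: Hr38 is LOC105185653, Jra is LOC105190515 and kay is LOC105183678. All 3 passed the filter on low values, an FPKM of at least 1 in at least 4 libraries, which 9986 genes passed. FPKM stands for fragments per kilobase of transcript, with a scale for each library.

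Activity-regulated genes are transcribed soon after a neuron fires, without new protein synthesis, and many of them encode transcription factors that set the later response of the cell. Jra is the insect Jun and kay the insect Fos: the proteins carry basic leucine zippers, pair with each other as AP-1, and are switched on by JNK and ERK kinases. Hr38 is the insect member of the NR4A family of orphan nuclear receptors, and in Drosophila it pairs with Ultraspiracle (usp), which is also the partner of the ecdysone receptor. Hr38 is widely used in insect brains as a marker of recent neuronal activity.

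The study followed workers that become gamergates, which are workers that mate, lay eggs and dominate a nest without a queen. Callow females that were 5 days old were isolated with males in nests without a reproductive, and the days given here count from that isolation. The 37 libraries were late pupae (n = 4, no day or caste label), and at day 10 duelers (n = 5), which took part in dominance contests, and workers (n = 4). At day 20 there were gamergates (n = 5) and workers (n = 4), and at day 120 dominant gamergates with mature oocytes (n = 6) and hunting workers (n = 9). Optic lobes, gnathal ganglion and most of the antennal lobes had been dissected away. No group carries a transgene or a drug treatment, and no label states when an ant last duelled, hunted or was handled before dissection. Nothing in the labels says that libraries of a group came from separate animals or nests, and the p-values then cover no more than the variation among the libraries sequenced, which may be technical.

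The libraries held 9.20 M to 55.78 M reads (M, 1000000) on genes, as recovered from the FPKM steps. Each age was sequenced in its own run, except that day 120 was spread over a pair of runs, so run and age cannot be told apart between ages. Late pupa replicate 2 stood apart: its mean correlation with the libraries of its own group was 0.925, the lowest of all 37, against 0.955 to 0.964 for the other pupae. Differences of Hr38, Jra and kay and the counts of gene lists in pupae are given with and without it. The neuronal marker genes that define brain tissue were present in every library, with a summed level of 308 to 1243 FPKM over 9 genes.

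Hr38 was low in late pupae and several-fold higher in every adult group. Late pupae had 0.258, 2.11, 0.613 and 0.332 FPKM. Duelers at day 10 had 4.03, 3.44, 7.45, 3.02 and 5.51 FPKM, against 5.98, 3.94, 6.25 and 5.17 FPKM in day 10 workers. All 33 adult libraries lay above all 4 pupae, and within each adult age the castes overlapped. The share of all genes that separated pupae from adults in this way was not computed. Day 20 gamergates had 3.03, 5.88, 4.27, 3.26 and 5.48 FPKM, against 6.83, 4.77, 3.37 and 3.22 FPKM in day 20 workers. Day 120 gamergates had a lowest, median and highest value of 3.11, 6.56 and 7.07 FPKM, against 3.72, 6.14 and 9.35 FPKM in hunting workers. Adult levels were thus spread from 3.03 to 9.35 FPKM, and no adult group stood clear of another.

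Jra, the Jun gene, was present at every stage, with group means from 6.61 FPKM in late pupae to 9.90 FPKM in day 120 gamergates. Late pupae had 6.54, 4.93, 8.93 and 6.04 FPKM. Duelers had 6.60, 5.59, 9.40, 6.34 and 7.44 FPKM, against 8.48, 6.76, 9.08 and 10.56 FPKM in day 10 workers. Pupae and both day 10 groups overlapped. Day 20 gamergates had 5.87, 7.68, 6.73, 6.95 and 14.07 FPKM, against 10.10, 7.88, 6.02 and 5.91 FPKM in day 20 workers. Day 120 gamergates had a lowest, median and highest value of 8.76, 9.69 and 11.72 FPKM, against 6.78, 7.88 and 9.99 FPKM in hunting workers. The day 120 gamergates had the highest group mean and the day 20 gamergates the widest spread, with 14.07 FPKM in 1 library.

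kay, the Fos gene, varied least between libraries of a group and was lowest in both day 20 groups. Late pupae had 9.47, 5.79, 9.01 and 7.33 FPKM. Duelers had 7.68, 6.60, 7.92, 7.32 and 7.77 FPKM, against 8.56, 6.49, 6.27 and 5.66 FPKM in day 10 workers. Pupae and day 10 adults overlapped. Day 20 gamergates had 4.98, 5.76, 5.81, 5.91 and 5.20 FPKM, against 4.42, 5.83, 5.69 and 5.71 FPKM in day 20 workers. Day 120 gamergates had a lowest, median and highest value of 6.73, 7.27 and 7.55 FPKM, against 6.45, 6.79 and 7.58 FPKM in hunting workers. The 9 day 20 libraries reached at most 5.91 FPKM and the 15 day 120 libraries at least 6.45 FPKM, so these ages did not overlap. How many of all genes separated these ages in the same way was not counted, and the ages also differed in run.

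**Figure D1:**
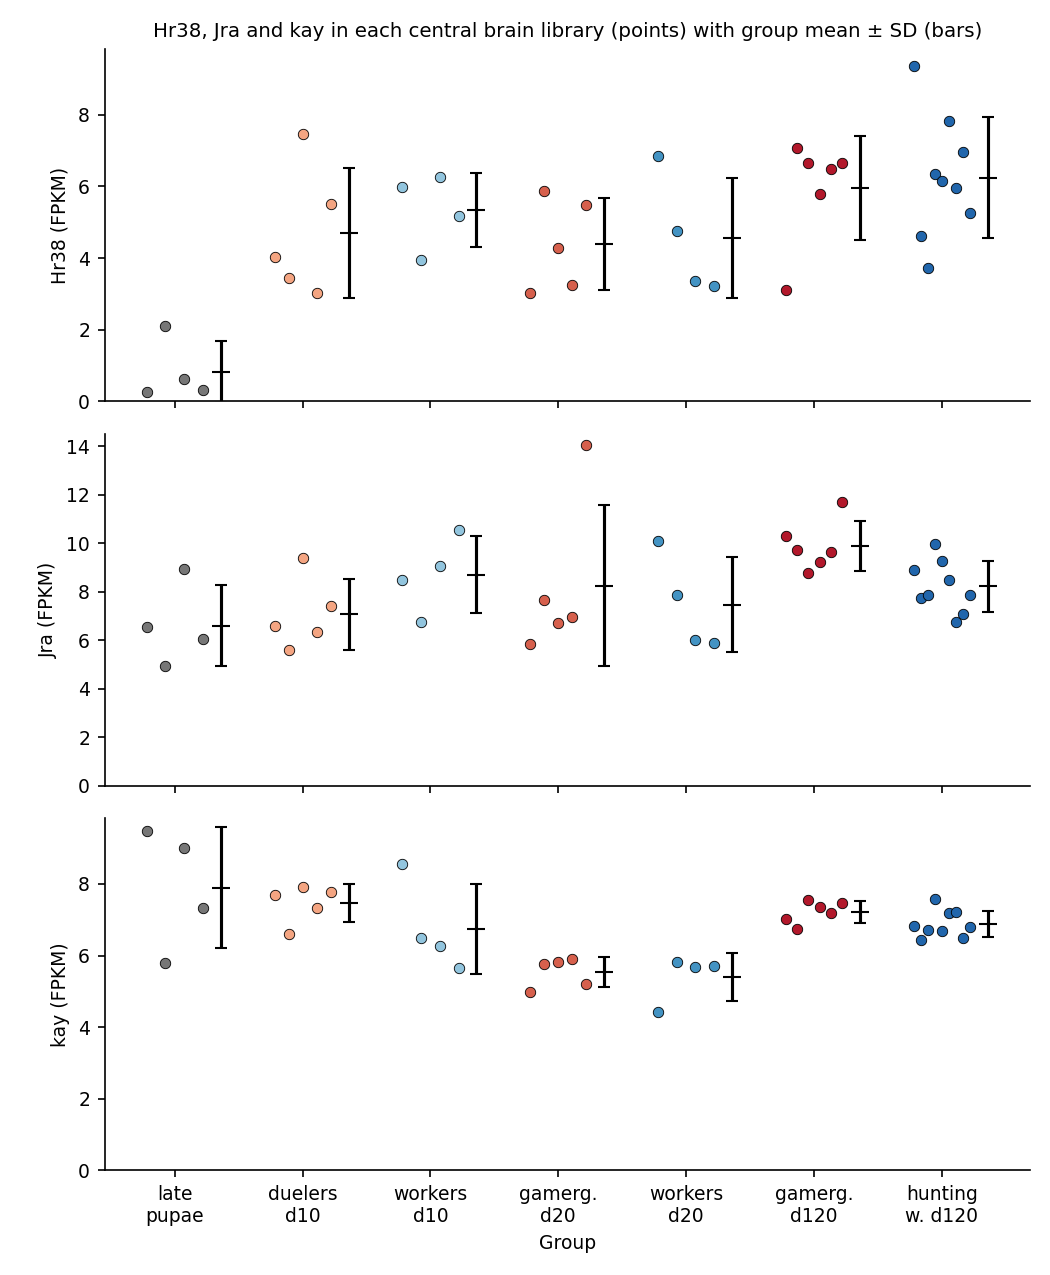
FPKM of Hr38, Jra and kay (y axes, from 0) in each of the 37 libraries (points) by group (x axis), with the group mean and SD as a bar to the right of the points. Hr38 is between 0.258 and 2.11 FPKM in the 4 late pupae and between 3.03 and 9.35 FPKM in the adults, and kay is at most 5.91 FPKM at day 20.

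In the order of group means, Hr38 averaged 6.24 ± 1.69 FPKM in hunting workers at day 120, 5.96 ± 1.46 in gamergates at day 120, 5.33 ± 1.04 in workers at day 10 and 4.69 ± 1.81 in duelers at day 10 (SD). It averaged 4.55 ± 1.67 FPKM in workers at day 20, 4.38 ± 1.28 in gamergates at day 20 and 0.828 ± 0.867 in late pupae. The highest adult mean of Hr38 was 1.42 times the lowest, the same ratio was 1.40 for Jra and 1.38 for kay, so none of the genes had a wide range of adult group means. Jra averaged 9.90 ± 1.03 FPKM in gamergates at day 120, then 8.72 ± 1.57 in workers at day 10, 8.26 ± 3.31 in gamergates at day 20 and 8.23 ± 1.03 in hunting workers. Workers at day 20 followed with 7.48 ± 1.97 FPKM, duelers with 7.07 ± 1.46 and late pupae with 6.61 ± 1.69. kay averaged 7.90 ± 1.68 FPKM in late pupae, 7.46 ± 0.526 in duelers, 7.22 ± 0.306 in gamergates at day 120, 6.88 ± 0.373 in hunting workers and 6.74 ± 1.26 in workers at day 10. The day 20 groups closed its order, with 5.53 ± 0.415 FPKM in gamergates and 5.41 ± 0.666 in workers.

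Groups next to each other in these orders were compared by exact two-sided permutation tests of log2(FPKM + 0.5), 18 in all. None passed 0.05 after Benjamini-Hochberg adjustment over the 18. The widest step was between day 20 gamergates and late pupae for Hr38, where the exact p was 0.00794, the smallest that 126 arrangements allow, and the adjusted p was 0.143. The next was the step between day 10 workers and day 20 gamergates for kay, with an exact p of 0.0476 and an adjusted p of 0.429. A lone step with 126 arrangements could not pass this adjustment, however wide it was. These tests therefore do not show that neighbouring groups were alike, and the order itself was taken from the same values.

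FPKM is per length, so the genes can also be set beside each other. Jra was above kay in 27 of 37 libraries: in 0 of 4 late pupae, 1 of 5 duelers, 3 of 4 day 10 workers, 5 of 5 day 20 gamergates, 4 of 4 day 20 workers, 6 of 6 day 120 gamergates and 8 of 9 hunting workers. The median ratio of Jra to kay was 0.838 in late pupae and 1.39 in day 120 gamergates, the lowest and highest of the 7 groups. Hr38 was above kay in 7 libraries and above Jra in 1, a hunting worker with 9.35 FPKM of Hr38 and 8.91 FPKM of Jra.

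The pupal comparison asks how the adult brain differs from the brain just before eclosion. Late pupae had 0.828 ± 0.867 FPKM of Hr38 (SD, n = 4), against 5.33 ± 1.04 FPKM in day 10 workers (SD, n = 4). The log2 difference, pupae minus workers, was -2.31 on the log2(FPKM + 0.5) scale (SE 0.30, 95% interval -2.92 to -1.70, 4.95-fold, limma adjusted p = 1.23e-07 over all genes tested). In this comparison 26.8% of all genes tested were lower in pupae, 30.6% were higher and 57.3% differed in either direction, so a call by itself was common. Without late pupa replicate 2 the difference was -2.70 (limma adjusted p = 8.80e-10). The 58 reads behind the lowest pupal value, 0.258 FPKM, give an exact Poisson 95% interval of 0.196 to 0.333 FPKM for counting error only, and the 444 reads behind the highest, 2.11 FPKM, give 1.92 to 2.31 FPKM. Counting error therefore left all 4 pupae below the adults. In tissue samples like these, fewer cells that express a gene and less of its RNA per cell cannot be told apart.

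Neither AP-1 gene passed the test in pupae. Jra averaged 6.61 ± 1.69 FPKM in late pupae and 8.72 ± 1.57 FPKM in day 10 workers, a log2 difference of -0.39 (SE 0.19, limma adjusted p = 0.0871). Without late pupa replicate 2 the difference was -0.27 (limma adjusted p = 0.270), and without replicates 1 or 4 it was -0.39 and -0.36 (limma adjusted p = 0.119 and 0.157). Without late pupa replicate 3, the pupa with the most Jra, it was -0.53 with a limma adjusted p of 0.0268, and without day 10 worker replicate 2 it was -0.50 with 0.0424. kay averaged 7.90 ± 1.68 FPKM in late pupae and 6.74 ± 1.26 FPKM in day 10 workers, a log2 difference of 0.21 (SE 0.11, limma adjusted p = 0.113). Without late pupa replicate 2 that difference was 0.34 with a limma adjusted p of 0.00671.

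Markers of cell types differed between late pupae and day 10 workers, which were also sequenced in different runs. Among all genes tested 30.6% were higher in pupae, 26.8% were lower and 57.3% differed in either direction. Of 9 neuronal markers, 1 was higher and 7 were lower in late pupae by limma, with a median log2 difference of -0.66, against 0.01 for all genes tested. They summed to 308, 342, 370 and 759 FPKM in late pupae and to 851 to 1051 FPKM in day 10 workers. Of 5 glial markers, 4 were higher and none lower, with sums of 239 to 436 FPKM in late pupae against 184 to 279 FPKM in day 10 workers. Of 6 retina and optic lobe markers, 4 were lower and none higher, with sums of 5.84 to 24.8 FPKM in late pupae against 10.1 to 999 FPKM in day 10 workers. Of 8 muscle markers, 1 was higher and 7 were lower, with sums of 31.2 to 39.2 FPKM in late pupae against 55.0 to 355 FPKM in day 10 workers. Without late pupa replicate 2 the counts were 1 higher and 7 lower for neurons, with a median of -1.0, and 3 higher and none lower for glia. They were 5 lower and none higher for retina and optic lobe, and 1 higher and 7 lower for muscle. The part of these markers in the Hr38 difference was not tested. Late pupa replicate 2 held the most neuronal marker RNA of the pupae, 759 FPKM, where the adults ranged from 480 to 1243 FPKM, and the most Hr38 of the pupae, 2.11 FPKM, where the lowest adult had 3.03 FPKM.

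**Figure D2:**
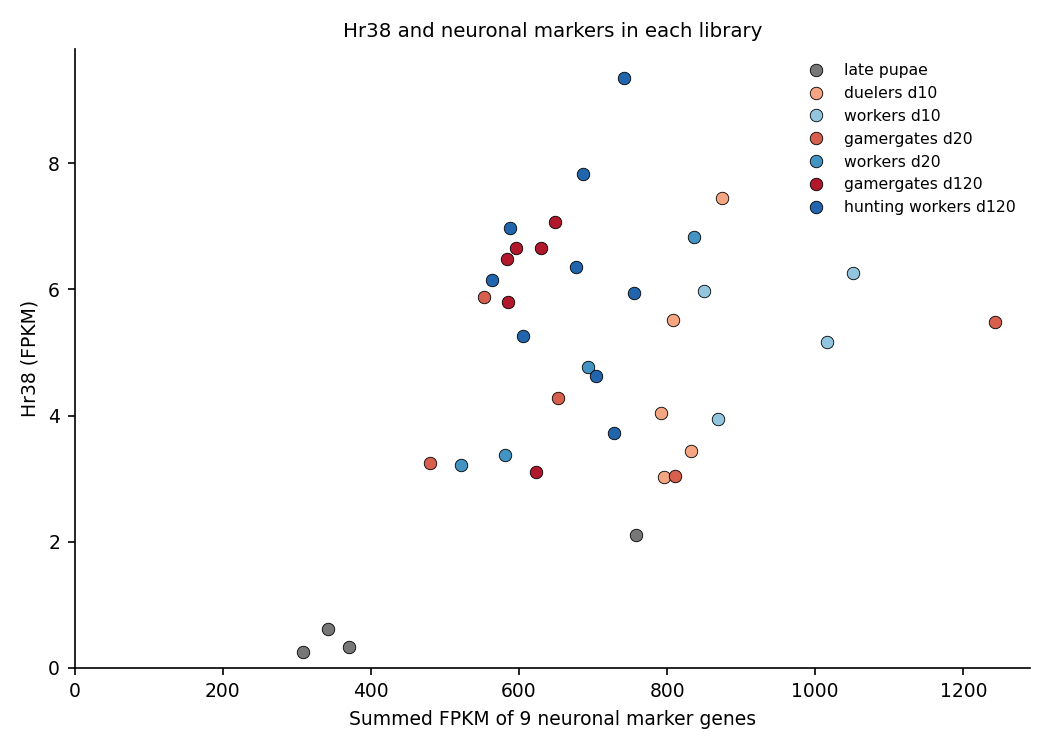
Hr38 in FPKM (y axis) against the summed FPKM of 9 neuronal marker genes (x axis) in each library, coloured by group. 3 late pupae lie at 308 to 370 FPKM of markers, below all adults, and the fourth lies at 759 FPKM of markers with 2.11 FPKM of Hr38.

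The genes that work with Hr38, Jra and kay were read from lists of pathway members by symbol, and a list is described here by its counts and its median beside the median of all genes tested, 0.01. The value given for a gene is its log2 difference, late pupae minus day 10 workers, and the genes said to be higher or lower passed the limma test. Of all genes tested 30.6% were higher and 26.8% lower in this comparison. In the list of ecdysone response and nuclear receptor genes, 4 were higher and 4 lower in late pupae of 13 tested, with a median log2 difference of 0.25. These counts were 5 and 5 without late pupa replicate 2, with a median of -0.01. usp, the partner of Hr38 in flies, averaged 7.80 ± 3.27 FPKM in late pupae and 31.1 ± 2.57 FPKM in day 10 workers, a log2 difference of -2.0 (SE 0.19, limma adjusted p = 2.67e-10). The usp difference without late pupa replicate 2 was -2.24 (limma adjusted p = 2.56e-12). Hr38 and usp were both lower in pupae. ftz-f1, a nuclear receptor of the late ecdysone response, was lower at -1.51. Hr4, an ecdysone-induced nuclear receptor, went the other way, with 59.95 ± 14.5 FPKM in late pupae and 1.28 ± 0.322 FPKM in day 10 workers, a log2 difference of 5.07 (limma adjusted p = 8.45e-20), which was 4.97 without late pupa replicate 2 (limma adjusted p = 6.15e-19).

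Hr4 also stands in the list of other activity-regulated genes, where 3 of 5 were higher and none lower in late pupae, with a median of 0.42. It was 4 of 5 without late pupa replicate 2, with a median of 0.56. homer, a postsynaptic scaffold, was higher by 1.09, and E75, an ecdysone-induced nuclear receptor, was higher by 0.42. None of these genes had the direction of Hr38 with a passed test.

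Among the partners of AP-1 and other basic leucine zipper factors, 4 were higher and 6 lower in late pupae of 12 tested, with a median of -0.29. The counts were the same without late pupa replicate 2, with a median of -0.32. REPTOR-BP, which in Drosophila pairs with the transcription factor REPTOR downstream of TORC1, was lower at -2.62, with 5.89 ± 1.15 FPKM in late pupae and 38.3 ± 1.80 FPKM in day 10 workers. maf-S, a small Maf protein, was lower at -1.0, and Xbp1, a factor of the unfolded protein response, at -0.85.

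Upstream of AP-1, in the JNK list 8 of 12 genes were higher and 2 lower, with a median of 0.56, and in the Ras-ERK list 9 of 13 were higher and 2 lower, with a median of 0.59, where 30.6% of all genes were higher and 26.8% lower. With late pupa replicate 2 left out, 8 JNK genes were higher and 2 lower, and 8 Ras-ERK genes were higher and 2 lower, with medians of 0.52 and 0.57. Traf4, an adaptor above the JNK kinases, was higher by 2.11, Src64B, a Src kinase, by 0.95, and POSH, a scaffold of the pathway, by 0.70. sty, the Sprouty inhibitor of receptor tyrosine kinase signalling, was higher by 1.84, bs, the fly serum response factor, by 1.09, and Egfr, the EGF receptor, by 1.07. bsk, the JNK gene itself, was lower at -0.58, and rl, the ERK gene, was higher by 0.56; both were named after their values were seen. In the list of cAMP, calcium and CREB signalling 2 of 13 genes were higher and 9 lower, with a median of -0.94, and 2 and 10 without late pupa replicate 2, with a median of -1.09. Mef2, a factor of neuronal and muscle differentiation, was lower at -2.04, RyR, the ryanodine receptor, at -1.36, and dnc, the cAMP phosphodiesterase of fly memory, at -1.29. Each gene named from these lists kept its call and direction without late pupa replicate 2.

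**Figure D3:**
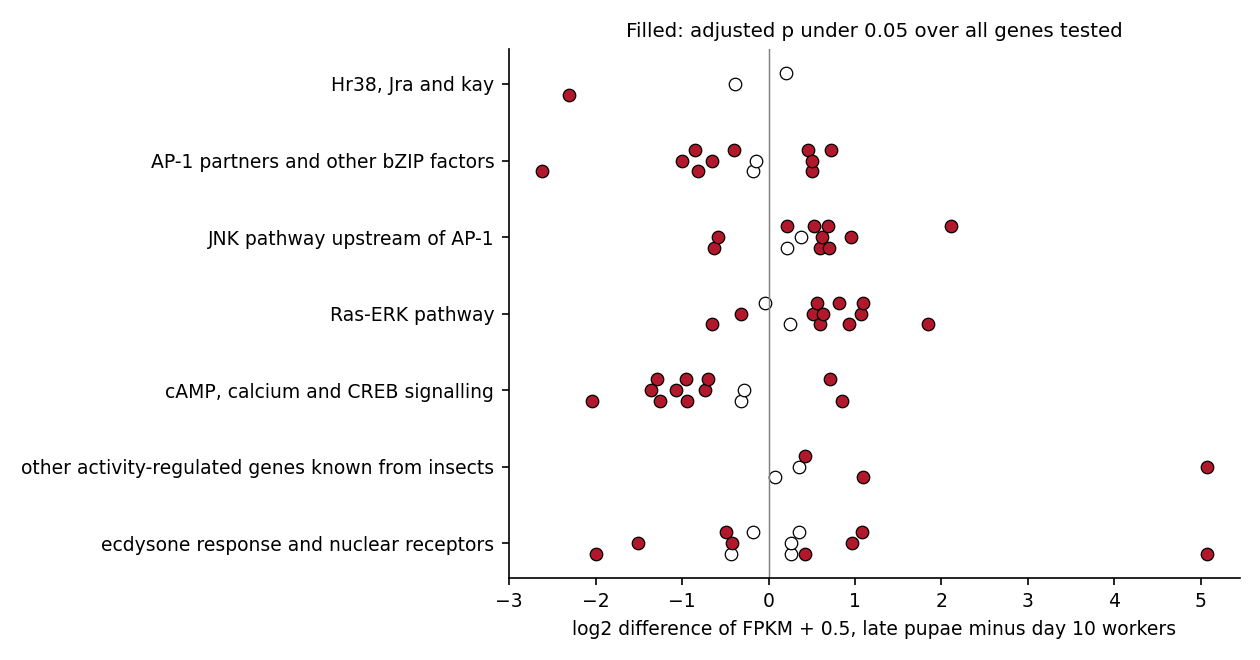
Log2 difference of FPKM + 0.5, late pupae minus day 10 workers (x axis), for each gene tested in 6 pathway lists and for Hr38, Jra and kay (rows). Filled points have a limma adjusted p under 0.05; the vertical scatter within a row has no meaning. Hr38 lies at -2.31, REPTOR-BP at -2.62, Mef2 at -2.04 and Hr4 at 5.07, and most genes of the JNK and Ras-ERK rows lie above 0.

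The comparisons between castes ask whether brains of ants on the reproductive path differ from those of workers of the same day. Hr38 did not pass the test at any day. It averaged 4.69 ± 1.81 FPKM in duelers and 5.33 ± 1.04 FPKM in day 10 workers, a log2 difference of -0.21 (SE 0.29, 95% interval -0.80 to 0.37). The difference was -0.03 at day 20 (95% interval -0.61 to 0.55) and -0.17 at day 120 (95% interval -0.64 to 0.31), gamergates minus workers. The limma adjusted p was 0.840, 1.00 and 0.728 in that order of days. The share of all genes called in either direction was 0.02% at day 10, 0.01% at day 20 and 0.0601% at day 120, so calls between castes were rare throughout. At day 120 the single gamergate of the smaller run held 3.11 FPKM, against 6.01 ± 2.48 FPKM in the 4 hunting workers of that run. The 5 gamergates of the other run averaged 6.53 ± 0.465 FPKM, against 6.43 ± 0.993 FPKM in its 5 hunting workers. The log2 difference within runs was -0.78 and 0.03, so its direction rested on that 1 gamergate.

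kay did not pass between castes either. The log2 difference, reproductive path minus workers, was 0.15 at day 10 (95% interval -0.07 to 0.36), 0.03 at day 20 (95% interval -0.18 to 0.25) and 0.06 at day 120 (95% interval -0.11 to 0.24). The limma adjusted p was 0.766, 1.00 and 0.721 in that order of days. Within the day 120 runs it was 0.03 and 0.07.

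For Jra the day 120 castes were furthest apart. Gamergates averaged 9.90 ± 1.03 FPKM (SD, n = 6), against 8.23 ± 1.03 FPKM in hunting workers (SD, n = 9), and 2 of 6 gamergates lay above all 9 hunting workers while none lay below them all. The log2 difference was 0.29 (SE 0.15, 95% interval -0.02 to 0.59), which did not pass over all genes (limma adjusted p = 0.364). An exact two-sided permutation test of Jra alone, which rearranged libraries within runs in 1260 ways, gave p = 0.00476. It was 1 of 9 such tests, for 3 genes on 3 days, is not adjusted for that number, and none of the other 8 gave a p under 0.05. The difference was 0.25 within the smaller run, which holds 1 gamergate, and 0.30 within the other. At day 10 Jra averaged 7.07 ± 1.46 FPKM in duelers and 8.72 ± 1.57 FPKM in workers, a log2 difference of -0.29 (exact permutation p = 0.151). At day 20 it averaged 8.26 ± 3.31 FPKM in gamergates and 7.48 ± 1.97 FPKM in workers, a difference of 0.10 (exact permutation p = 0.754) that turned to -0.10 without day 20 gamergate replicate 5. The change of the caste difference, day 120 minus day 10, was 0.57 for Jra (95% interval 0.09 to 1.06). Its p from limma was 0.0216 unadjusted and 1.00 adjusted over all genes, and limma called 0% of genes in that test. At an unadjusted limma p under 0.05 there were 320 genes, 3.2% of those tested, below the share that this threshold gives when nothing differs.

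Averaged over the 3 days, the reproductive path minus workers gave log2 differences of -0.14 for Hr38 (95% interval -0.45 to 0.18), 0.03 for Jra (95% interval -0.17 to 0.24) and 0.08 for kay (95% interval -0.04 to 0.20). None passed, where 0.15% of genes did. No gene of the pathway and marker lists was called in any comparison between castes.

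**Figure D4:**
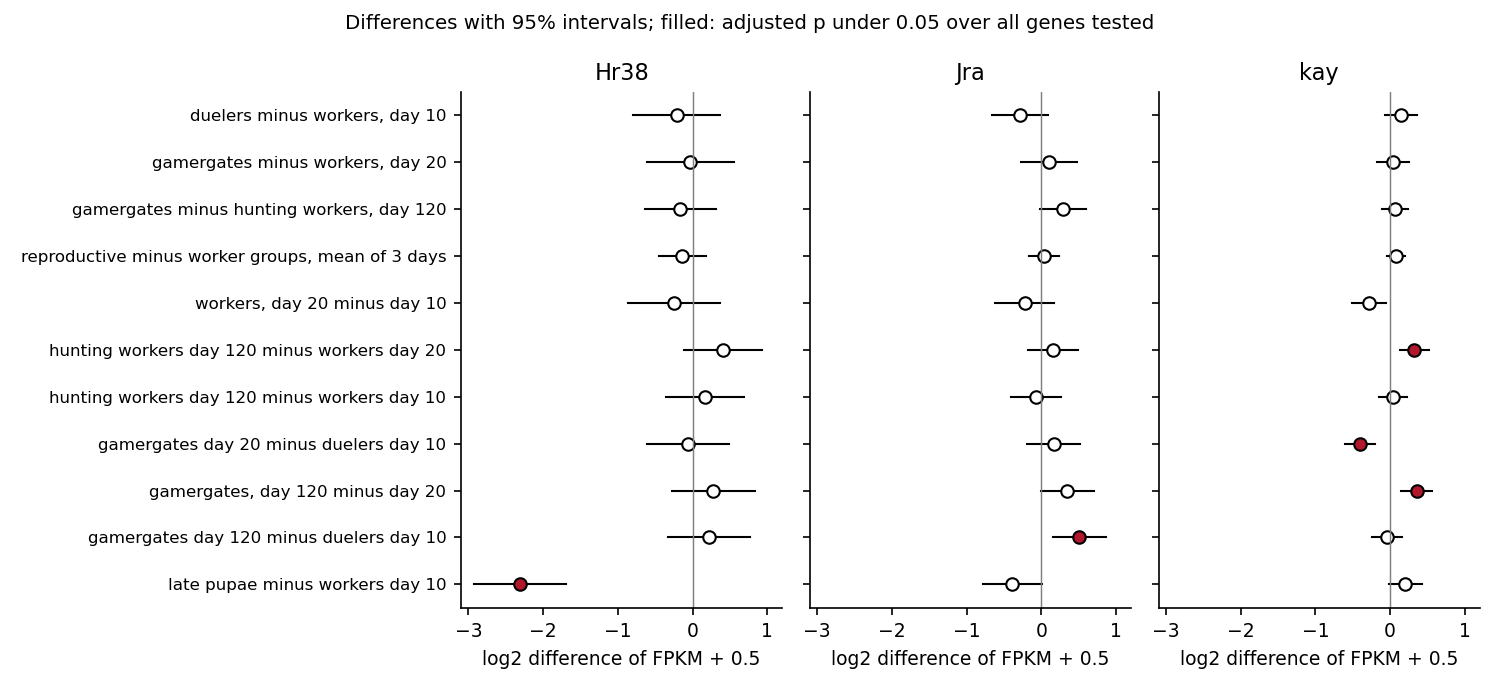
Log2 differences of FPKM + 0.5 (x axes) for Hr38, Jra and kay in 11 comparisons (rows, first-named group minus the other), with 95% intervals from limma. Filled points have a limma adjusted p under 0.05: Hr38 at -2.31 in late pupae, Jra at 0.51 in day 120 gamergates over duelers, and kay at -0.40, 0.35 and 0.33 around day 20.

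Between adult days, kay was lower in day 20 gamergates than in duelers. It was higher at day 120 than at day 20 in gamergates and in workers. The day 120 workers were all hunting workers, a label that the day 20 workers do not carry. In the workers, age, run and hunting therefore cannot be told apart. Day 20 gamergates averaged 5.53 ± 0.415 FPKM of kay, against 7.46 ± 0.526 FPKM in duelers at day 10, and the 5 libraries of each did not overlap. The log2 difference was -0.40 (SE 0.10, 95% interval -0.60 to -0.20, limma adjusted p = 0.00337), where 11.7% of genes were lower, 14% were higher and 25.8% differed. After rescaling to TPM (transcripts per 1000000) the difference was -0.37 and did not pass (limma adjusted p = 0.0960). Day 120 gamergates averaged 7.22 ± 0.306 FPKM, against 5.53 ± 0.415 FPKM in day 20 gamergates, again with no overlap. The log2 difference was 0.35 (SE 0.10, 95% interval 0.15 to 0.56, limma adjusted p = 0.00910), where 17.4% of genes were higher, 16.3% were lower and 33.7% differed. Hunting workers at day 120 averaged 6.88 ± 0.373 FPKM, against 5.41 ± 0.666 FPKM in workers at day 20, without overlap. The log2 difference was 0.33 (SE 0.09, 95% interval 0.13 to 0.52, limma adjusted p = 0.0261), where 5.39% of genes were higher and 10.1% differed. It fell to 0.24 with a limma adjusted p of 0.158 without day 20 worker replicate 1, and to 0.30 with 0.0508 without hunting worker replicate 4. It was 0.41 with a limma adjusted p of 0.0920 under TPM, and 0.33 with 0.0664 when only the larger day 120 run was used. Workers at day 20 against workers at day 10 gave a difference of -0.29 (SE 0.11), which did not pass (limma adjusted p = 0.0634), where 9.49% of genes were lower and 21.4% differed. It was -0.36 with a limma adjusted p of 0.0246 without day 10 worker replicate 4, and 0.08 under TPM, where the median of all genes was 0.34. Between day 120 and day 10 the difference of kay was -0.05 in the gamergate series and 0.04 in workers. For the groups that did not overlap in kay, the share of all genes without overlap was not computed.

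Jra passed in 1 comparison between days. Day 120 gamergates averaged 9.90 ± 1.03 FPKM, against 7.07 ± 1.46 FPKM in duelers at day 10, and all 6 gamergates lay above 4 of the 5 duelers. The log2 difference was 0.51 (SE 0.17, 95% interval 0.15 to 0.86, limma adjusted p = 0.0313), where 13.1% of genes were higher and 25.1% differed. The call was lost without dueler replicates 1, 2 or 4 or gamergate replicates 1 or 6, each left out singly, with differences of 0.43 to 0.52 and limma adjusted p of 0.0623 to 0.0960. It was also lost with the larger day 120 run alone (0.46, limma adjusted p = 0.0514). Markers of cell types also differed in this comparison. Of 3 fat body markers 2 were higher and none lower in day 120 gamergates, Hex70a by 2.83 and apolpp by 0.63, with sums of 327 to 584 FPKM in day 120 gamergates against 210 to 345 FPKM in duelers. Of 5 glial markers none was higher and 2 were lower, moody at -1.03 and Gat-1B at -0.84, with sums of 129 to 169 FPKM against 199 to 226 FPKM in duelers. Of 9 neuronal markers VGlut was higher by 0.68, and cpx and nSyb were lower at -0.96 and -0.55, with sums of 584 to 649 FPKM in day 120 gamergates against 792 to 875 FPKM in duelers. Of 6 retina and optic lobe markers 1 was lower and none higher, and of 8 muscle markers 1 was lower and none higher. The part of these markers in the Jra difference was not tested. Day 120 gamergates against day 20 gamergates gave a difference of 0.34 (limma adjusted p = 0.117), which was 0.55 with a limma adjusted p of 0.0104 without day 20 gamergate replicate 5. Hunting workers against workers at day 10 gave -0.07 (95% interval -0.40 to 0.27, limma adjusted p = 0.800), where 24.6% of genes differed.

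Hr38 did not pass between any adult days. Its largest difference was 0.41 in hunting workers at day 120 minus workers at day 20 (SE 0.26, 95% interval -0.11 to 0.93, limma adjusted p = 0.315). In day 120 gamergates it was 0.28 over day 20 gamergates (95% interval -0.27 to 0.83) and 0.22 over duelers (95% interval -0.34 to 0.77). These intervals reach well past the size of the kay differences that passed.

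Of the 12 basic leucine zipper genes tested, Atf-2 was called in the directions of kay. Atf3 was called against them in both gamergate comparisons. Atf-2, a basic leucine zipper factor that can pair with Jun, averaged 6.37 ± 0.818 FPKM in day 20 gamergates and 9.01 ± 0.716 FPKM in duelers, a log2 difference of -0.47 (limma adjusted p = 0.00134). Atf-2 was higher by 0.34 in day 120 gamergates over day 20 gamergates and by 0.34 in hunting workers over day 20 workers, both called. It was lower at -0.44 in day 20 workers over day 10 workers, also called, where kay was not called. In the first of these comparisons, day 20 gamergates minus duelers, 3 of the 12 basic leucine zipper genes were higher and 1 lower, with a median of 0.01 against -0.03 for all genes tested. Of all genes tested 14% were higher, 11.7% lower and 25.8% either, so these counts were not far from those of all genes. Atf3, a stress-induced factor, was higher there by 0.41 and CrebB, the fly CREB, by 0.23. In the JNK list none of 12 was higher and 3 were lower: Src42A, a Src kinase, at -0.64, egr, the TNF ligand of the pathway, at -0.59, and wgn, its receptor, at -0.57. The JNK median was -0.13. The share of the JNK list called in either direction was near that of all genes.

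In day 120 gamergates over day 20 gamergates the Ras-ERK list had 4 of 13 genes higher and none lower, with a median of 0.43 against -0.01 for all genes tested. Egfr was higher by 0.81, bs by 0.61 and Sos, the exchange factor of Ras, by 0.49. Of all genes tested 17.4% were higher, 16.3% lower and 33.7% either, so the shares of the Ras-ERK and JNK lists called in either direction were no higher than that of all genes. In the JNK list 2 of 12 were higher and 1 lower: wnd, a kinase above JNK, by 0.63, Ask1, another such kinase, by 0.43, and Rac1, a small GTPase, at -0.27. Among the 12 basic leucine zipper genes 3 were higher and 1 lower, with a median of -0.02. The largest differences were those of cnc, higher by 0.53, Atf3, lower at -0.52, and CrebA, higher by 0.46. In hunting workers over day 20 workers no gene of the JNK and Ras-ERK lists was called.

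Glial and stress genes were called in both gamergate comparisons in which kay was called, and fat body genes in 1 of them. In day 20 gamergates minus duelers 2 of 5 glial markers, repo and Gat-1B, were lower and none higher. The markers summed to 99.8 to 163 FPKM in day 20 gamergates against 199 to 226 FPKM in duelers. In day 120 gamergates over day 20 gamergates 3 were higher, repo, axo and Gli, and none lower. The sums were 129 to 169 FPKM against 99.8 to 163 FPKM, and only repo was called in both of these comparisons. Of 6 heat shock and stress genes 3 were lower and none higher in the first comparison, among them Hsc70-4, a cytosolic chaperone, at -0.69. In the second, 3 were higher and 1 lower. The share of all genes that differed was 25.8% in the first comparison and 33.7% in the second. Of 3 fat body markers 2 were higher and none lower in day 120 gamergates over day 20 gamergates, with a median of 1.10: Hex70a, a hexamerin storage protein, by 2.15 and apolpp, the lipophorin apolipoprotein, by 1.10. These markers summed to 327 to 584 FPKM in day 120 gamergates and to 124 to 285 FPKM in day 20 gamergates, without overlap. In hunting workers over day 20 workers, where kay was also called, none of the 5 glial, 6 stress and 3 fat body genes was called in either direction, with medians of 0.04, 0.18 and -0.76. The part of these genes in the kay differences was not tested.

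The spread between libraries of a group differed among the genes. The residual SD of log2(FPKM + 0.5), after the mean of each group and run, was 0.43 for Hr38, 0.28 for Jra and 0.15 for kay, against a median of 0.24 over all genes tested. That of Hr38 was above 88.0% of genes tested and above 91.7% of the 5836 genes with a mean of 2 to 15 FPKM. That of Jra was above 63.4% and 70.0%, and that of kay above 14.5% and 17.4%. With the pupae included, Hr38 was thus among the more variable genes between libraries of the same group, and kay among the steadier. The largest Hr38 deviation, 1.16, was that of late pupa replicate 2, and no SD was computed without it.

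Libraries with more Hr38 than their group tended to have more Jra, while kay followed neither. Over the 37 deviations from the mean of group and run, Hr38 and Jra had a Pearson r of 0.378 (permutation p = 0.0636, adjusted 0.191 over 3 pairs) and a Spearman rho of 0.493 (permutation p = 0.00810, adjusted 0.0243). Without the 2 libraries farthest in Hr38, late pupa replicate 2 and dueler replicate 3, r was 0.557, and over the 33 adults alone it was 0.672. Within single groups r was taken on log2(FPKM + 0.5) itself, with run not removed. It was then 0.291 within the hunting workers and -0.152 within the day 120 gamergates. The latter includes the lone gamergate of the smaller run, with 3.11 FPKM of Hr38 and 10.29 FPKM of Jra. That library has a deviation of 0 by construction, so these values cannot be set beside the r of the deviations. Hr38 and kay had r = -0.280 (permutation p = 0.316) and rho = -0.0073, and r was -0.0861 without the same 2 libraries. Jra and kay, the AP-1 pair, had r = 0.0947 (permutation p = 0.660) and rho = 0.134. Without day 20 gamergate replicate 5 and day 20 worker replicate 1, r was 0.333 for that pair. Over the 33 adults alone r was -0.139 for Jra and kay and 0.0588 for Hr38 and kay. Values of 1 library share its depth, scaling and composition.

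**Figure D5:**
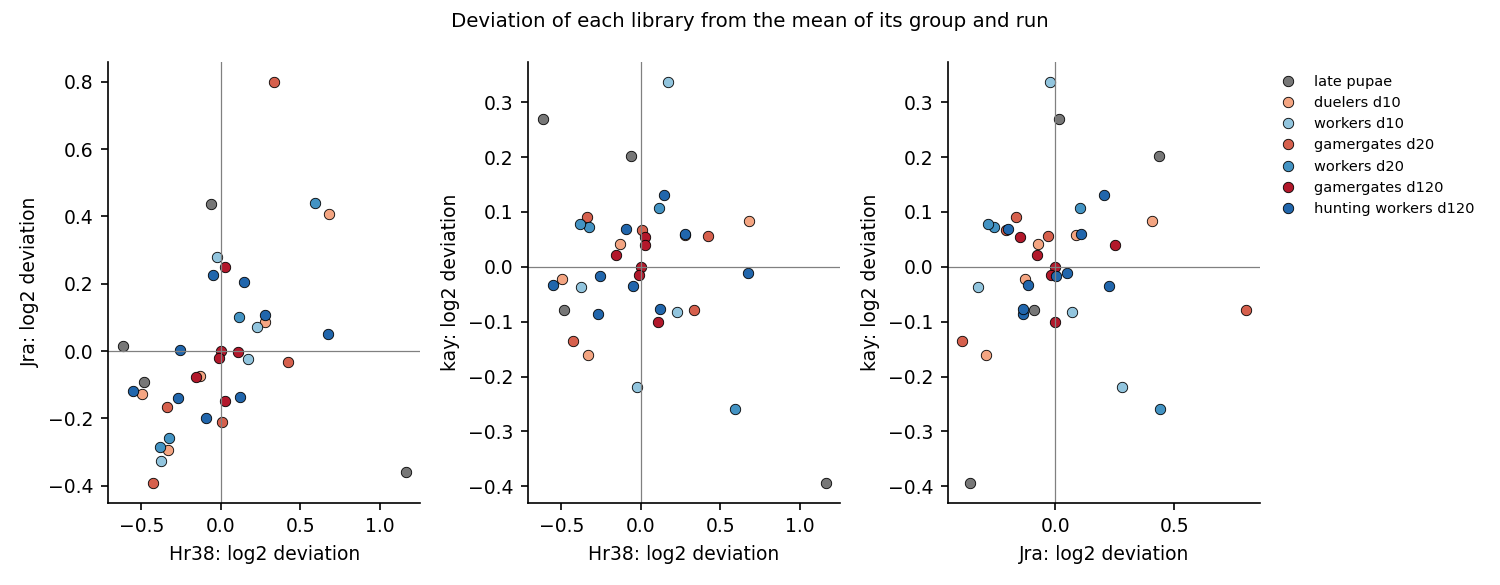
Deviation of each library from the mean of its group and run in log2(FPKM + 0.5), for Hr38 against Jra, Hr38 against kay, and Jra against kay (x and y axes), coloured by group. Most points of the Hr38 and Jra panel rise together (Spearman rho 0.493), late pupa replicate 2 lies at the lower right of it, and the kay panels show no trend.

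The named genes whose deviations were most like those of each transcription factor were taken from 3690 genes with a symbol and a mean of at least 2 FPKM. For Hr38 these were ChT (r = 0.926), Myo81F (0.919), atos (0.912), Plc21C (0.907) and Rab3-GEF (0.898). Over the 33 adults alone the same genes had r of 0.870 to 0.899. ChT is a choline transporter in Drosophila, Plc21C a phospholipase C and Rab3-GEF an exchange factor for a synaptic vesicle GTPase. For Jra they were Pi3K21B (0.875), the regulatory subunit of PI3 kinase, mam (0.863), the Notch coactivator, rin (0.861), BuGZ (0.855) and Ptp69D (0.852), a receptor tyrosine phosphatase. For kay they were Parp1 (0.816), repo (0.783), the homeobox factor of glia, Clic (0.780), ClC-a (0.774), a chloride channel, and Cand1 (0.757). Over the 33 adults alone r was 0.84 to 0.87 for the Jra genes and lower, 0.64 to 0.74, for the kay genes. These values are descriptions over 37 libraries and were the highest of many.

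Over the 7 group means, HDAC4, a histone deacetylase, was most like Hr38 (r = 0.996), followed by Tsf1 (0.989), a transferrin, and jdp (0.989). Without the pupae their r over 6 groups was 0.961, 0.739 and 0.813. Crtc, the coactivator of CREB, was most like Jra (0.970), followed by Rbp (0.947) and dysc (0.932). Crtc averaged 31.3 ± 3.08 FPKM in day 120 gamergates and 26.9 ± 4.48 FPKM in hunting workers. Atg1, the autophagy kinase, was most like kay (0.991), followed by brun (0.986) and Hakai (0.985).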

How the data were processed

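The authors deposited 1 table of FPKM per gene for 37 libraries. bcl2fastq, STAR and featureCounts were used, per the submitters' processing notes; for their versions and for the genome build, not given in the sources used here, no value is stated. Per the labels' protocols, libraries were strand-specific polyA RNA. Symbols were looked up in RefSeq's gene table for Hsal_v8.6, which paired 13989 identifiers and left 12. From the FPKM steps, whole reads were recovered for all 13445 genes above 0 (tolerance 0.1 read). Relative to its median, the ratio of recovered reads to the FPKM scale ran from 0.840 to 1.31 between libraries. The deposited FPKM were therefore not scaled to the total of reads on genes.

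limma 3.58.1 in R 4.3.3 was fitted to log2(FPKM + 0.5) of 9986 genes, over all libraries, with 1 mean per group, a term for the day 120 runs and Benjamini-Hochberg adjustment over all genes tested (threshold 0.05). Folds are on that scale and understate low genes. Exact permutation tests and correlations of residuals (100000 permutations) used scipy 1.17.1. Scripts were tested on simulated data. The planned adjustment of the 9 exact tests between castes was dropped, since it would have been over the chosen genes alone. From each list the called genes named are up to 3 per comparison, by size; named for likeness are the 5 highest by residuals and 3 by group means. Members, lists and tests were chosen with earlier results of these data known. Alternatives were other pseudocounts, filters and scalings, array weights, only the groups compared, a replicate block, 1 run at day 120, libraries left out and voom on recovered reads, the last chosen after seeing the data.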

Additional observations from a re-analysis of the deposited data

Results flagged for a closer look

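3 single libraries lay far from the others of their group by Dixon's test, which was applied to the 3 genes in 7 groups, 21 in all; chance flags about 1 in 20. Hr38 was 3.109 FPKM in day 120 gamergate replicate 1, against 5.79 to 7.07 FPKM in the other 5, and that library is the only gamergate of its run. Jra was 14.07 FPKM in day 20 gamergate replicate 5, against 5.87 to 7.68 FPKM in the other 4. That library was the shallowest of all 37, with 9.20 M reads, and the 689 reads of Jra give an exact Poisson 95% interval of 13.0 to 15.2 FPKM for counting error only. It also held the highest summed neuronal markers, 1243 FPKM. kay was 4.416 FPKM in day 20 worker replicate 1, against 5.69 to 5.83 FPKM in the other 3. The part of run, depth or markers in these values was not tested.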

How the results depend on the processing

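Over 1086 alternatives of the 42 comparisons of Hr38, Jra and kay, 1018 kept direction and side of the threshold, 12 lost a call, 13 gained one and 43 changed the sign of a value that was not called; none was called with the opposite sign. No comparison between castes was called in any. Hr38 in late pupae kept its call in all 18 alternatives (-3.20 to -1.88) and kay in day 120 over day 20 gamergates in all 23 (0.31 to 0.51). The cause of the changes was not tested.

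Under TPM the median of all genes was 0.51 in pupae minus day 10 workers, 0.46 in hunting workers minus day 10 workers, 0.34 in day 20 minus day 10 workers and 0.27 between the day 10 castes. Under TPM, kay was 0.72 in pupae (0.21 relative to that median), 0.50 in hunting over day 10 workers (0.04) and -0.37 in day 20 gamergates minus duelers (-0.39, call lost, adjusted p 0.0960), and 0.41 in hunting over day 20 workers (0.34, call lost, adjusted p 0.0920). Signs changed under TPM for Hr38 between day 10 castes (0.044, relative -0.23, exact test included), for kay between day 20 castes (-0.0091, exact test included), in day 20 minus day 10 workers for Hr38 (0.11, relative -0.22), kay (0.081, relative -0.26) and Jra (0.15, relative -0.19), for Jra in hunting over day 10 workers (0.39, relative -0.07), for kay in day 120 gamergates over duelers (0.14, relative -0.06), for Jra in pupae (0.092, relative -0.42) and for the change of the Hr38 caste difference to day 20 (-0.12) and day 120 (-0.21), both from day 10. Among neighbours in the orders of means TPM reversed Hr38 (day 10 workers over duelers -0.044, duelers over day 20 workers -0.070), Jra (day 10 workers over day 20 gamergates -0.21, duelers over pupae -0.11) and kay (duelers over day 120 gamergates -0.16, day 10 workers over day 20 gamergates -0.072, day 20 gamergates over workers -0.0091).

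Quantile scaling gave kay in day 20 minus day 10 workers -0.36 (called) and in hunting over day 10 workers -4.81e-05. Array weights called hunting over day 20 workers for Hr38 (0.62) and Jra (0.35), day 120 over day 20 gamergates for Jra (0.48) and kay in pupae (0.31), and changed the sign of Hr38 between day 20 castes (0.19) and in day 20 gamergates minus duelers (0.12) and of Jra in hunting over day 10 workers (0.078). With the larger day 120 run alone, kay in hunting over day 20 workers (0.33, adjusted p 0.0664) and Jra in day 120 gamergates over duelers (0.46, adjusted p 0.0514) lost their call, and Hr38 changed sign between day 120 castes (0.030) and in the change of that difference from day 20 (0.063).

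Castes with the same replicate number correlated at -0.128 to 0.178 at day 10, 0.0993 to 0.450 at day 20 and -0.0910 to 0.239 at day 120; not every pair was over 0.1 at any day, so the numbers were not taken to pair libraries. With the replicate block kay in hunting over day 20 workers was 0.33 (adjusted p 0.136), Jra averaged over days between castes -0.012 and the Hr38 caste change from day 10 to 120 -0.038; genes called in hunting over day 20 workers were 299, against 1009 without it.

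Leaving out single libraries, with a sign or call changed, gave these ranges. Between day 20 castes Hr38 ranged over -0.16 to 0.17, kay -0.052 to 0.070 and Jra -0.10 to 0.25, by limma and exact test alike. Between day 120 castes Hr38 ranged over -0.23 to 0.030 in both and kay 0.048 to 0.080 by exact test, and kay between day 10 castes 0.075 to 0.26 by exact test, with an exact p of 0.0179 without day 10 worker replicate 1. Jra between castes over days was -0.034 to 0.082. kay was -0.36 to -0.17 in day 20 minus day 10 workers, 0.24 to 0.36 in hunting over day 20 workers, -0.033 to 0.15 in hunting over day 10 workers and 0.12 to 0.34 in pupae. Jra was -0.18 to 0.027 in hunting over day 10 workers, -0.037 to 0.26 in day 20 gamergates minus duelers, 0.25 to 0.55 in day 120 over day 20 gamergates, 0.43 to 0.61 in day 120 gamergates over duelers and -0.53 to -0.27 in pupae. Hr38 was -0.19 to 0.11 in day 20 gamergates minus duelers. The caste change ranged over -0.074 to 0.24 for Hr38 from day 10 to 120, -0.33 to 0.063 for Hr38 and -0.0071 to 0.11 for kay from day 20 to 120. The planned edgeR test was not run; voom on recovered reads stood in for it. Counting error is widest for Hr38 in pupae, with 58 to 444 reads a library; every other value of the 3 genes rests on at least 238 reads.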
